A study of Homo sapiens with 24 samples.

Results

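PPC1 prostate cancer cells were profiled by bulk RNA-seq, and the 10 genes described here are classic readouts of the oxidative, heme and iron responses. They are the transcription factor gene NFE2L2, which encodes NRF2, its target genes GCLC, GCLM, TXNRD1, SRXN1 and NQO1, the heme oxygenase gene HMOX1, and the iron genes FTH1, FTL and TFRC. The members were taken by gene symbol from the 48162 genes of the count table, and they were selected on their measured LCL521 differences in same-numbered library pairs, so that response is given below as a description with no test. SRXN1 has 2 rows, of which 1 was at 0 counts in all 24 libraries, and the other is used. All 10 genes passed the filter on low counts in all 4 comparisons.

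The 24 libraries fall into 4 conditions with 6 libraries each. UT libraries came from parental, mitotically growing PPC1 cells that were harvested on day 5. UT_LCL libraries came from parental cells that received 5 µM LCL521 for the last 5 h before harvest. PGCC libraries came from cells given 8 Gy of radiation on day 2 and retained on a 20 micron filter on day 5, which enriches polyploid giant cancer cells. PGCC_LCL libraries came from cells that were irradiated and filtered in the same way after the same LCL521 exposure. LCL521 inhibits acid ceramidase (ASAH1), a lysosomal enzyme that breaks down ceramide. All conditions used this single cell line, and the whole experiment was run 6 times with the 4 conditions side by side. Libraries with the same replicate number were taken to come from the same run and were compared as pairs. The sample titles give the number alone. Radiation and filtration always went together, so their parts cannot be told apart. The labels do not say whether cells without LCL521 received a vehicle.

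NRF2 is a transcription factor that KEAP1 keeps at a low level by handing it to a ubiquitin ligase. When electrophiles or oxidants modify KEAP1, NRF2 accumulates, pairs with a small MAF protein and binds antioxidant response elements in the promoters of genes for glutathione synthesis, thioredoxin reduction and quinone detoxification. BACH1 competes for the same elements and leaves them when it binds heme, and HMOX1, which opens the heme ring and frees its iron, is the best known gene under this control. Ferritin, built from FTH1 and FTL subunits, stores that iron, and the transferrin receptor TFRC brings iron into the cell. Iron regulatory proteins, encoded by ACO1 and IREB2, bind hairpins called iron-responsive elements. In the 5′ UTR of the ferritin transcripts they block translation, and in the 3′ UTR of TFRC they protect the transcript from decay.

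The iron-responsive elements are shown for the 3 iron genes alone, whose control by them is described above, and any in the other members were not listed. They were found in GENCODE v29 transcripts (build GRCh38) as a C, 5 bases, the loop CAGTGN and 5 more bases, where the 5 bases on either side of the loop pair with each other, G with T pairs included. Such a match was present in 1.48% of 19702 genes with a coding transcript. In the transcript of each gene with the most matches, FTH1 and FTL had 1 match each, in the 5′ UTR, and TFRC had 4, all in the 3′ UTR. The windows of 29 bases below run 5′ to 3′ on the transcript, and capitals mark the loop.
FTH1 (chr11:61967574-61967602, minus strand): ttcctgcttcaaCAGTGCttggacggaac
FTL (chr19:48965335-48965363, plus strand): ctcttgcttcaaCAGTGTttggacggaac
TFRC element 1 (chr3:196050979-196051007, minus strand): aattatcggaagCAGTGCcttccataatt
TFRC element 2 (chr3:196050575-196050603, minus strand): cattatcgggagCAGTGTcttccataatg
TFRC element 3 (chr3:196050510-196050538, minus strand): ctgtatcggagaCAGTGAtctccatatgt
TFRC element 4 (chr3:196050463-196050491, minus strand): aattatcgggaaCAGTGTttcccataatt

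The promoters were searched for the core of the antioxidant response element, TGACNNNGC, on both strands of the window from 250 bases before to 50 bases after the start site (RefSeq, build GRCh38.p14). The core was present in 13.3% of 35116 such windows. Of the 10 members, 8 are in the promoter table, all except HMOX1 and FTH1, and the core was found in the windows of GCLM and TXNRD1. These matches are shown because no other member in the table had one in its window, and capitals mark the core. Bases outside the window were not searched, so a window without a match does not show that the gene lacks the core. A match is a description of these letters and not a binding site.
GCLM (chr1:93909446-93909474, minus strand): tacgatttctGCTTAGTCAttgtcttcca
TXNRD1 upstream start, distal (chr12:104215670-104215698, plus strand): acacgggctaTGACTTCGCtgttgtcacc
TXNRD1 upstream start, proximal (chr12:104215761-104215789, plus strand): gcgtccttcgGCTCCGTCAgttcccacag
TXNRD1 downstream start (chr12:104286920-104286948, plus strand): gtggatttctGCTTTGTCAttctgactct
The AP-1 and MAF core TGACTCA, present in 4.95% of windows, was in none of the 10 windows of these 8 genes.

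Total counts ranged from 14835246 to 19906601 per library. The first principal component (55.9% of the variance) separated PGCC from parental libraries, and the second (16.5%) separated replicates 4 and 5 of every condition from replicates 1, 2, 3 and 6. In UT, both replicates 4 and 5 lay outside the range of the other 4 libraries for 50.7% of genes, against 46.5% in UT_LCL, 40.3% in PGCC and 39.9% in PGCC_LCL, so each member is given with and without them where they matter. Markers of the prostate lineage were sparse: TMPRSS2, KLK2, KLK3 and FOLH1 held at most 2 counts in any library, whereas HOXB13, KRT8, KRT18 and VIM were abundant. Of 7 prostate and epithelial markers tested between UT and PGCC, 3 rose and 2 fell, 71.4% against 47.4% of all genes. The mean of KRT8 rose from 70.3 to 178 CPM and that of HOXB13 fell from 745 to 428 CPM (edgeR adjusted p = 3.51e-06 and 0.000213). The median of KRT18 went from 243 to 168 CPM, and that of KRT14 from 0 to 4.04 CPM. Of 3 markers of other cell types that could be tested, 2 rose, where 47.4% of all genes were called and 23.1% were higher. COL1A2 of fibroblasts rose from 63.9 to 113 CPM (adjusted p = 0.0474) and PTPRC of leukocytes from 1.17 ± 1.03 to 3.10 ± 0.606 CPM (adjusted p = 0.0164). The fibroblast marker COL1A1 did not rise, with a median of 7.63 CPM in UT and 7.55 CPM in PGCC. DCN, also of fibroblasts, held at most 1 count in UT and 3 in PGCC. The log2 fold change of PTPRC was 1.39, and 2.63 without replicates 4 and 5 (adjusted p = 6.52e-06). The sum over the 11 other-cell markers in the table was 50.9 to 137 CPM in UT and 83.7 to 210 CPM in PGCC, and CD68, HBB, HBA1 and HBA2 held at most 2 counts. The part of these markers in the results below was not tested.

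Levels of different genes were compared as read counts scaled to library size and divided by gene length in kilobases (CPM per kb). In UT the order was FTH1 with a mean of 1666 ± 372 (SD, n = 6), FTL with 662 ± 55.9, TXNRD1 with 566 ± 222, NQO1 with 216 ± 42.1, TFRC with 174 ± 42.3, HMOX1 with 34.8 ± 18.1, GCLC with 28.3 ± 3.38, NFE2L2 with 27.0 ± 8.57, GCLM with 14.0 ± 5.58 and SRXN1 with 0.823 ± 0.290. The range of TXNRD1 (240 to 780) overlapped those of FTL and NQO1, and NQO1 overlapped TFRC. HMOX1 (16.7 to 61.6) overlapped GCLC, NFE2L2 and GCLM, and GCLC overlapped NFE2L2. The lowest FTH1 library (1321 CPM per kb) lay above the highest FTL library (756 CPM per kb). SRXN1 held only 16 to 51 counts per library, and its locus overlaps 2 other gene models on the same strand, so its level is uncertain. All CPM values below are scaled by TMM.

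**Figure D1:**
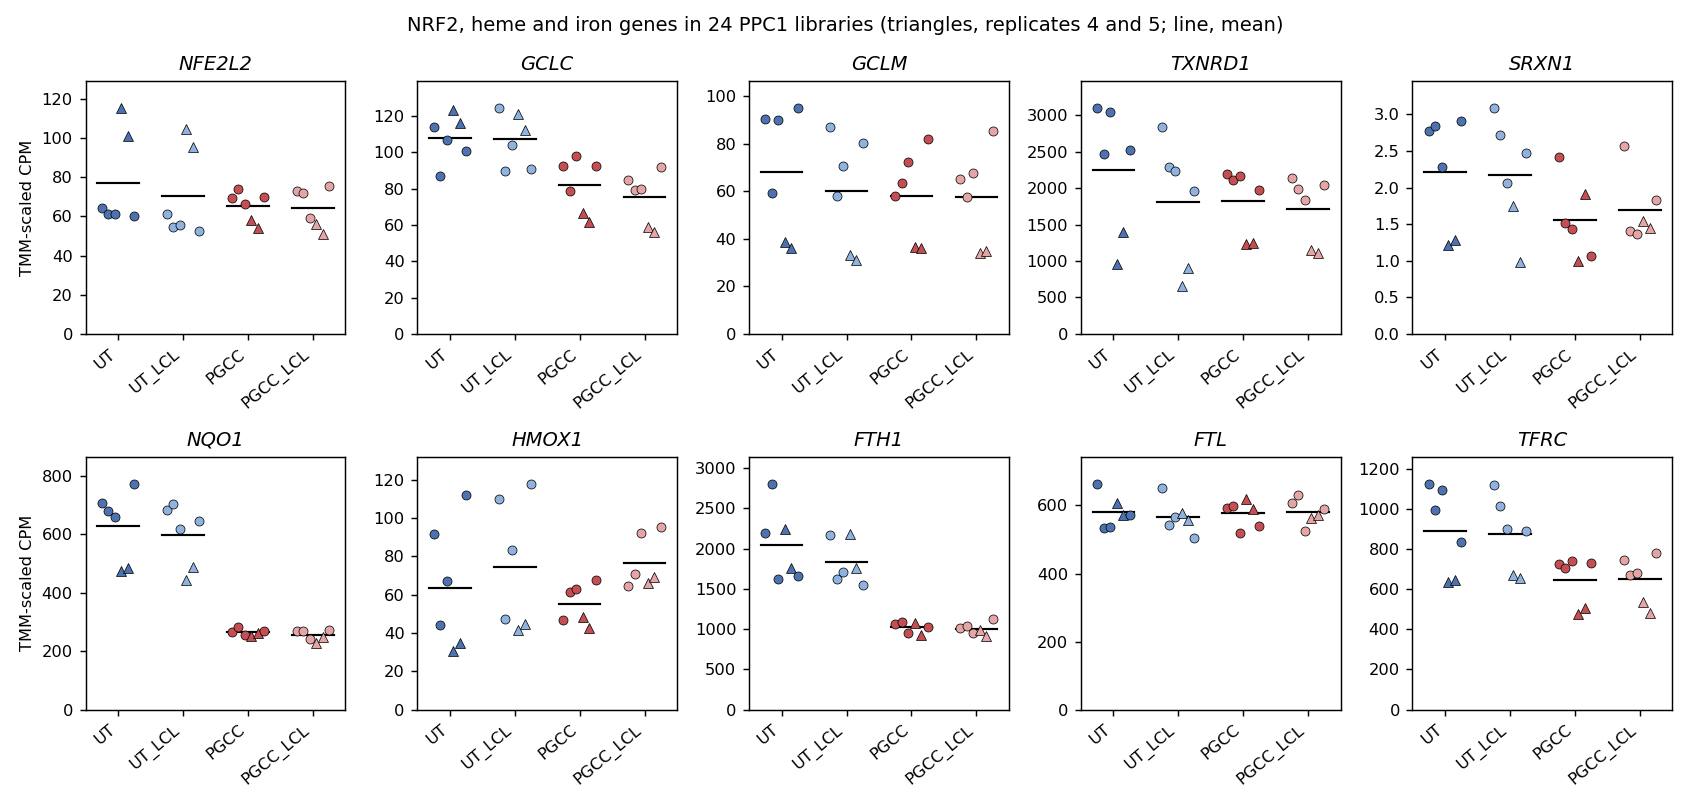
CPM (TMM-scaled, linear axes from 0) of the 10 genes in each of the 24 libraries, 6 per condition, with the mean of each condition as a line and replicates 4 and 5 as triangles. NQO1 and FTH1 in all PGCC libraries lay below all parental libraries. Within UT and within UT_LCL the triangles lay above the circles for NFE2L2. They lay below the circles for GCLM, TXNRD1, SRXN1, NQO1, HMOX1 and TFRC.

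PGCC contained less NQO1, FTH1, TFRC and GCLC mRNA than parental cells, and FTL did not pass the test. Of the 10 members, 4 fell and 0 rose in PGCC versus UT (edgeR's quasi-likelihood test, adjusted p under 0.05 over 13812 genes). Over all genes tested 47.4% were called, 24.3% lower and 23.1% higher, so the number of members called was no larger than the share among all genes. The median log2 fold change of the members was -0.34, against -0.03 over all genes. In bulk RNA, fewer cells of a type and less RNA per cell cannot be told apart, and every level is relative to the RNA of the whole library.

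The same contrast in the LCL521-treated libraries called the same 4 members lower and 0 higher. Of the 13818 genes tested in it, 48.9% were called, 23.9% lower and 25% higher. The contrast shares no library with the first, but same-numbered libraries were taken to come from the same runs, so it is no independent repeat. This contrast is called PGCC_LCL versus UT_LCL, or the contrast under LCL521, below. When the model carried a term for the replicate number (the replicate block), the number of members called was again 4 in each contrast, where 56.2% and 56.3% of all genes were called. All 6 pairs were lower for 4 members in PGCC versus UT (25.8% of all genes) and for 3 in PGCC_LCL versus UT_LCL (26.1%). In PGCC versus UT without replicates 4 and 5, 5 members were called lower (NQO1, FTH1, TFRC, TXNRD1 and SRXN1) and 1 higher (NFE2L2), where 54.6% of all genes were called, 26.9% lower and 27.7% higher. Adding the block to that fit gave 6 lower, GCLM joining, and 1 higher, against 64.3% of all genes. Under LCL521 without those replicates 3 members were lower and 1 higher, against 52.5% of all genes. In each contrast over all replicates 2 members, NQO1 and FTH1, had groups that did not overlap, a pattern met by 26.8% of genes in PGCC versus UT and 28.1% in PGCC_LCL versus UT_LCL.

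**Figure D2:**
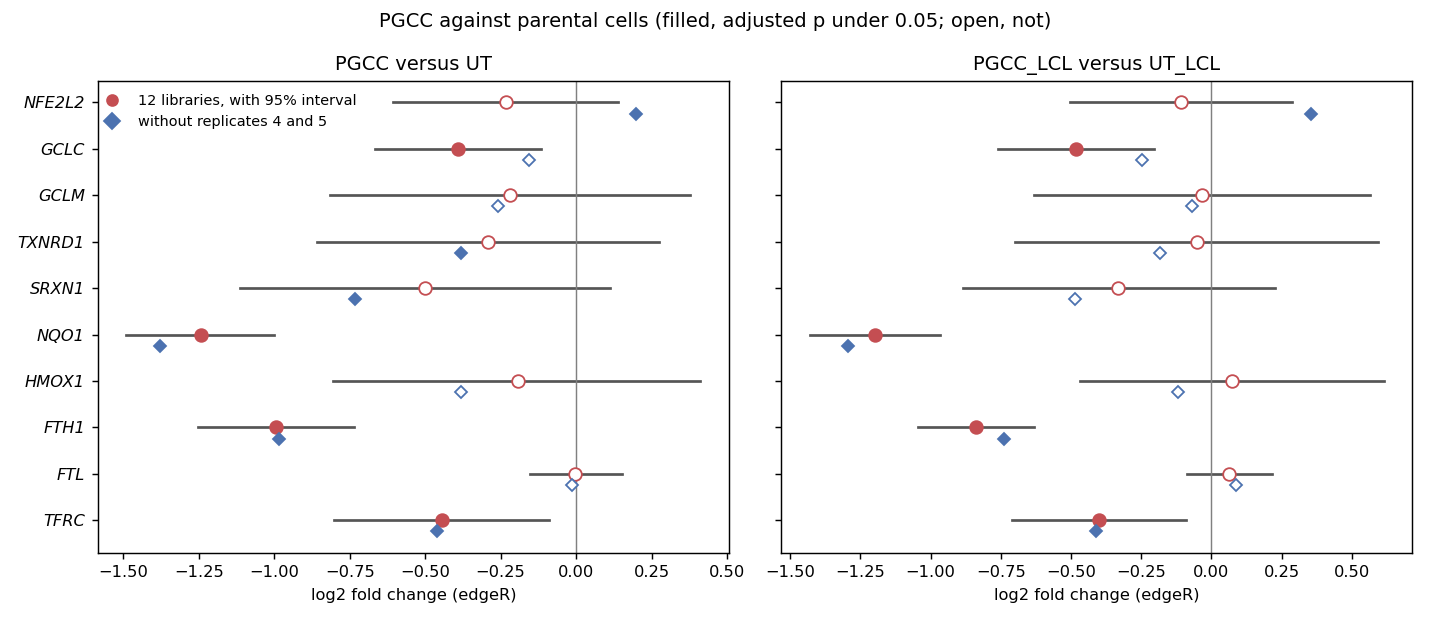
Log2 fold change of each gene in PGCC versus UT (left) and PGCC_LCL versus UT_LCL (right), with circles and 95% intervals for all 12 libraries and diamonds for the 8 libraries without replicates 4 and 5. Filled symbols passed an adjusted p of 0.05. NQO1 and FTH1 were the lowest in both panels, and NFE2L2 lay on opposite sides of 0 with and without replicates 4 and 5.

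NQO1, a quinone reductase and one of the most used NRF2 reporters, fell the most. In UT it ranged from 473 to 773 CPM with a median of 669, and in PGCC from 251 to 282 CPM with a median of 265. Every PGCC library lay below every UT library, and the PGCC libraries were closer together than the UT libraries (SD 11.2 against 123 CPM). The log2 fold change was -1.24 ± 0.11 (SE), a fold of 0.422 with a 95% interval of 0.356 to 0.5 (adjusted p = 1.3e-06). With LCL521 in both populations the log2 fold change was -1.20 ± 0.11 (adjusted p = 8.57e-07). Replicates 4 and 5 had the lowest NQO1 in UT (473 and 486 CPM) but not a distinct level in PGCC, and without them the log2 fold change was -1.38.

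GCLC and GCLM encode the catalytic and modifier subunits of glutamate-cysteine ligase, the enzyme that commits cysteine to glutathione. GCLC was between 86.8 and 123 CPM in UT (median 110) and between 61.9 and 97.8 CPM in PGCC (median 85.8), and the groups overlapped. It was lower in PGCC in 6 of 6 pairs, with a log2 fold change of -0.39 ± 0.13 (adjusted p = 0.0214). The size of this fall rested on replicates 4 and 5, whose pair differences were -0.88 and -0.91 against -0.12 to -0.30 in the other 4 pairs. For GCLC the adjusted p without replicate 4 alone, replicate 5 alone or both was 0.0824, 0.0741 and 0.202, with a log2 fold change of -0.16 without both. With LCL521 in both populations it was -0.48 ± 0.13 (adjusted p = 0.00699), and -0.25 without replicates 4 and 5 (adjusted p = 0.0557).

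GCLM did not pass the test. It ranged from 36.1 to 95.04 CPM in UT (median 74.5) and from 36.3 to 82.0 CPM in PGCC (median 60.7), with a log2 fold change of -0.22 ± 0.28 (adjusted p = 0.54). In all 4 conditions replicates 4 and 5 had the lowest GCLM (31.3 to 38.6 CPM against 57.8 to 95.04 CPM in the others). GCLC was not low in those parental libraries, so the ratio of GCLC to GCLM per kb was 4.06 and 4.10 in UT replicates 4 and 5 and 1.35 to 1.87 in the others. In PGCC the ratio was 2.33 and 2.17 in replicates 4 and 5 and 1.44 to 2.04 in the others.

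TXNRD1, the cytosolic thioredoxin reductase, and SRXN1, which repairs overoxidized peroxiredoxins, also did not pass in the full set of libraries. TXNRD1 was 2464, 2530, 3045 and 3098 CPM in UT replicates 2, 6, 3 and 1, and 955 and 1397 CPM in replicates 4 and 5. In PGCC it was 1972 to 2196 CPM in the former and 1228 and 1241 CPM in the latter. The drop in replicates 4 and 5 was larger in parental cells (1.26 on the log2 scale) than in PGCC (0.78), a difference that was not tested. With all replicates the log2 fold change was -0.29 ± 0.26 (adjusted p = 0.38), and without replicates 4 and 5 it was -0.38 (adjusted p = 0.00166).

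SRXN1 was 1.22 to 2.91 CPM in UT (median 2.53) and 1.00 to 2.42 CPM in PGCC (median 1.47), ranges that overlapped. Its log2 fold change was -0.50 ± 0.29 (adjusted p = 0.165), and -0.73 without replicates 4 and 5 (adjusted p = 0.0283). Under LCL521 neither gene passed with or without those replicates: TXNRD1 was at -0.05 and -0.18, and SRXN1 at -0.33 and -0.49.

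NFE2L2, the gene for NRF2 itself, went in opposite directions in the 2 sets of replicates. In UT it was 60.0 to 64.1 CPM in replicates 1, 2, 3 and 6 and 115 and 101 CPM in replicates 4 and 5. In PGCC it was 66.2 to 74.2 CPM in the former and 58.2 and 53.9 CPM in the latter. The pair differences were thus +0.11 to +0.28 in 4 pairs and -0.98 and -0.90 in the pairs of replicates 4 and 5. Over all libraries the log2 fold change was -0.23 ± 0.17 (adjusted p = 0.286), and without replicates 4 and 5 it was 0.20 (adjusted p = 0.0376). Under LCL521 the values were -0.11 ± 0.19 (adjusted p = 0.656) and 0.36 (adjusted p = 0.00516).

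Among 16 further genes that control NRF2 or compete with it, 4 rose and 2 fell in PGCC versus UT, 37.5% against 47.4% of all genes, with a median log2 fold change of 0.01. MAFF, a small MAF partner, rose from 30.9 ± 13.2 to 77.6 ± 8.36 CPM (log2 fold change 1.33 ± 0.22, adjusted p = 0.000227). The repressor gene BACH2 rose from 3.32 ± 0.526 to 7.65 ± 1.34 CPM (1.21 ± 0.16, adjusted p = 2.79e-05). BACH1 rose from 26.6 ± 5.00 to 35.6 ± 5.47 CPM (0.43 ± 0.14, adjusted p = 0.0235), and with the block the change was 0.43 at an adjusted p of 0.0537. BACH1 rose by 0.74 without replicates 4 and 5 (adjusted p = 4.98e-05), and it rose under LCL521 with and without the block (adjusted p = 0.0189 and 0.00614).

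TRIM16, an E3 ligase that binds NRF2, fell from 39.1 ± 4.78 to 17.8 ± 4.63 CPM (log2 fold change -1.13 ± 0.17, adjusted p = 8.16e-05), and NFE2L1, the NRF2 relative that controls proteasome genes, fell from 275 ± 97.6 to 193 ± 16.1 CPM (-0.51 ± 0.18, adjusted p = 0.032). KEAP1 was at 131 ± 28.9 and 118 ± 15.7 CPM (adjusted p = 0.44), and SQSTM1, the autophagy receptor that can displace KEAP1, at 594 ± 125 and 519 ± 162 CPM (adjusted p = 0.494). Neither of these 2 genes passed the test. Omitting replicates 4 and 5, 7 of 17 genes of this group rose and 2 fell, 52.9% against 54.6% of all genes, and NFE2L1 was at -0.19 (adjusted p = 0.0498). In PGCC_LCL versus UT_LCL the NFE2L1 change did not pass edgeR's test (-0.39, adjusted p = 0.104). Without replicates 4 and 5 it was -0.02 there (adjusted p = 0.846).

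Of 42 other NRF2 target enzymes and transporters tested, 12 fell and 8 rose, 47.6% against 47.4% of all genes. The median log2 fold change was -0.13 against -0.03. ABCC3, an exporter of organic anions, fell from 290 ± 65.8 to 97.6 ± 12.4 CPM (log2 fold change -1.56 ± 0.14, adjusted p = 1.32e-06), and NQO2, the paralog of NQO1, fell from 46.3 ± 3.72 to 19.7 ± 1.91 CPM (-1.23 ± 0.09, adjusted p = 2.27e-07). The carbonyl reductase CBR3 rose from 4.87 ± 1.39 to 12.1 ± 2.02 CPM (1.32 ± 0.19, adjusted p = 6.05e-05). The aldo-keto reductase AKR1C3 rose from 1.35 ± 0.399 to 3.47 ± 0.949 CPM (1.37 ± 0.24, adjusted p = 0.000381), and close relatives of it could share its reads. The counts without replicates 4 and 5 were 19 lower and 8 higher, 64.3% against 54.6% of all genes.

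SLC7A11, the cystine importer that feeds glutathione synthesis, had a mean of 177 ± 140 CPM in UT and 88.4 ± 19.2 CPM in PGCC. Its log2 fold change was -1 ± 0.41 (adjusted p = 0.0557), and it was -0.06 without replicates 4 and 5 (adjusted p = 0.736). Under LCL521 the change was -0.98 ± 0.39 with an adjusted p of 0.0482, which rose to 0.079 with the replicate block and to 0.597 without replicates 4 and 5. The UT level of SLC7A11 varied accordingly, with an SD close to its mean.

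Of 25 enzymes that use glutathione or remove peroxides, 4 rose and 4 fell, 32% against 47.4% of all genes. The glutathione peroxidase GPX1 fell from 241 ± 22.2 to 142 ± 13.6 CPM (log2 fold change -0.76 ± 0.08, adjusted p = 5.69e-06). AIFM2, a ubiquinone reductase that protects membranes from lipid peroxidation, fell from 12.5 ± 2.57 to 3.43 ± 0.819 CPM (-1.86 ± 0.19, adjusted p = 3.03e-06). The superoxide dismutase SOD1 rose from 149 ± 21.0 to 209 ± 14.99 CPM (0.50 ± 0.10, adjusted p = 0.000781), and the methionine sulfoxide reductase MSRB2 rose from 4.66 ± 0.925 to 7.29 ± 1.02 CPM (0.65 ± 0.16, adjusted p = 0.00361). In the 8 libraries without replicates 4 and 5, 9 rose and 6 fell, 60% against 54.6% of all genes.

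HMOX1 differed more among UT libraries than between populations. It ranged from 30.5 to 112 CPM in UT (median 55.6) and from 42.8 to 67.8 CPM in PGCC (median 54.9). The pair differences ran from -0.97 in replicate 1 to +0.67 in replicate 4, with 3 pairs higher and 3 lower. The log2 fold change was -0.19 ± 0.29 (adjusted p = 0.6), and its 95% interval, a fold of 0.572 to 1.33, leaves room for a change in either direction. Replicates 4 and 5 had the lowest HMOX1 in UT (30.5 and 35.0 CPM). Without them the HMOX1 change was -0.38 (adjusted p = 0.167), and -0.32 with the replicate block (adjusted p = 0.0923). With LCL521 in both populations the log2 fold change was 0.07 ± 0.25 (adjusted p = 0.833).

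HMOX2, the constitutive heme oxygenase, fell in PGCC from 62.2 ± 14.1 to 44.4 ± 2.62 CPM (log2 fold change -0.48 ± 0.13, adjusted p = 0.00872). It was also lower in PGCC_LCL than in UT_LCL (-0.44 ± 0.13, adjusted p = 0.0101). Of 12 genes for heme breakdown and transport, the list that holds HMOX2, 1 rose and 2 fell, 25.0% against 47.4% of all genes. The heme-binding protein gene HEBP1 rose from 20.8 ± 2.99 to 27.8 ± 3.71 CPM (0.43 ± 0.12, adjusted p = 0.00859), and HEBP2 fell from 27.2 ± 2.32 to 23.3 ± 1.01 CPM (adjusted p = 0.0465, and 0.0505 with the replicate block). With replicates 4 and 5 left out, 1 rose and 1 fell, 16.7% against 54.6% of all genes.

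Of 13 heme synthesis genes, 4 fell and 1 rose, 38.5% against 47.4% of all genes, with a median log2 fold change of -0.24. SLC25A38, which carries glycine into mitochondria for the first step, fell from 49.9 ± 3.90 to 33.6 ± 3.58 CPM (-0.56 ± 0.09, adjusted p = 0.000177), and ALAD, the enzyme of the second step, fell from 38.6 ± 3.71 to 28.2 ± 3.43 CPM (-0.44 ± 0.10, adjusted p = 0.00215). CPOX, a later enzyme of the pathway, rose from 99.9 ± 25.8 to 140 ± 14.5 CPM (0.50 ± 0.15, adjusted p = 0.0154). The counts were 5 lower and 1 higher without replicates 4 and 5, 46.2% against 54.6% of all genes.

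The ferritin subunits parted in PGCC. FTH1, the subunit that oxidizes iron for storage, ranged from 1623 to 2806 CPM in UT (median 1978) and from 932 to 1087 CPM in PGCC (median 1043). All PGCC libraries lay below all UT libraries, and the highest UT library, replicate 2, stood above the other UT libraries (1623 to 2239 CPM). The log2 fold change was -0.99 ± 0.12, a fold of 0.502 with a 95% interval of 0.420 to 0.601 (adjusted p = 1.55e-05). Under LCL521 it was -0.84 ± 0.10 (adjusted p = 7.29e-06). The FTH1 changes without replicates 4 and 5 were -0.99 and -0.74.

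FTL, the subunit that helps form the iron core, ranged from 533 to 664 CPM in UT (median 572) and from 520 to 618 CPM in PGCC (median 592). The groups overlapped throughout, and 3 of 6 pairs were higher and 3 lower. The log2 fold change was 0.00 ± 0.07 (adjusted p = 0.977), with a 95% interval of 0.900 to 1.11 for the fold, and with LCL521 in both populations it was 0.06 ± 0.07 (adjusted p = 0.485). The sign of the FTL change in PGCC versus UT flipped with DESeq2, RLE factors and library totals (0.008, 0.008 and 0.092 on the log2 scale).

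The ratio of FTH1 to FTL, each per kb, was computed within each library. It was 2.08 to 3.76 in UT, 2.15 to 2.70 in UT_LCL, 1.13 to 1.35 in PGCC and 1.15 to 1.37 in PGCC_LCL. Parental and PGCC libraries did not overlap, and within either population the libraries with and without LCL521 did. The 25 FTH1 pseudogenes in the table summed to 0.353% to 0.583% of the FTH1 count, and the 16 FTL pseudogenes summed to at most 0.235% of the FTL count.

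**Figure D3:**
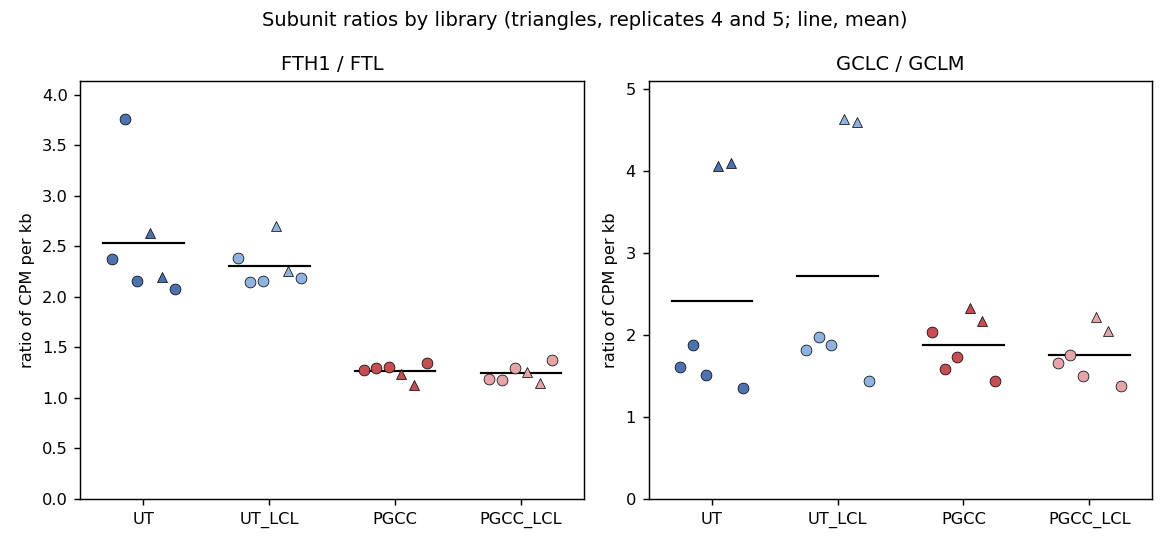
Ratio of CPM per kb in each of the 24 libraries for the ferritin subunits (left) and the subunits of glutamate-cysteine ligase (right), with the mean per condition as a line and replicates 4 and 5 as triangles. The FTH1 to FTL ratio was at least 2.08 in parental libraries and at most 1.37 in PGCC, and the GCLC to GCLM ratio was above 4 in replicates 4 and 5 of parental cells alone.

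TFRC ranged from 636 to 1124 CPM in UT (median 915) and from 478 to 740 CPM in PGCC (median 714). The ranges overlapped only through UT replicates 4 and 5 (636 and 646 CPM), and TFRC was lower in PGCC in 6 of 6 pairs, by 0.19 to 0.64 on the log2 scale. The log2 fold change was -0.45 ± 0.17 (adjusted p = 0.0389). With the replicate block the adjusted p was 0.000545, and without replicates 4 and 5 it was 0.000542 at a change of -0.46. For TFRC without the block, leaving out replicate 1, 2, 3 or 6 gave adjusted p values of 0.0954, 0.0896, 0.0829 and 0.0523, and keeping only genes with at least 10 counts in every library gave 0.0534. Under LCL521 the change was -0.40 ± 0.14 (adjusted p = 0.0335, and 0.000806 with the block). Leaving out replicate 1, 2 or 3 from that contrast moved the adjusted p of TFRC to 0.0717, 0.0969 and 0.0768.

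The iron sensors were measured as well. IREB2, the gene for iron regulatory protein 2, fell from 62.3 ± 8.65 to 42.7 ± 4.66 CPM (log2 fold change -0.54 ± 0.11, adjusted p = 0.000972). FBXL5, the ligase subunit that sends iron regulatory proteins for degradation, rose from 38.1 ± 2.62 to 48.5 ± 3.27 CPM (0.36 ± 0.08, adjusted p = 0.00221). ACO1 was at 41.1 ± 8.41 and 35.7 ± 4.35 CPM (adjusted p = 0.258). FAM96A, which serves iron-sulfur cluster delivery to ACO1, rose from 17.03 ± 2.49 to 22.2 ± 3.28 CPM (adjusted p = 0.0213, and 0.0518 without replicates 4 and 5).

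In all, 2 of 8 iron sensing genes rose and 1 fell, 37.5% against 47.4% of all genes, and 1 rose and 4 fell without replicates 4 and 5, 62.5% against 54.6%. Under LCL521 the change was -0.55 ± 0.12 for IREB2 (adjusted p = 0.00125) and 0.26 for FBXL5 (adjusted p = 0.035).

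Of 14 other genes for iron uptake, storage and export, 2 rose and 4 fell, 42.9% against 47.4% of all genes. CYBRD1, a ferric reductase that prepares iron for uptake, rose from 1.59 ± 0.493 to 7.91 ± 0.751 CPM (log2 fold change 2.33 ± 0.19, adjusted p = 5.08e-07), and the metal importer SLC39A8 rose from 27.6 ± 7.70 to 39.5 ± 4.08 CPM (0.53 ± 0.16, adjusted p = 0.0153). The iron chaperone genes PCBP1 and PCBP2, which load ferritin, fell by 0.55 and 0.52 on the log2 scale (adjusted p = 0.000784 and 5.41e-05). SLC40A1, the gene for the only known iron exporter, held 0 to 2 counts in every library and could not be compared at this depth. Leaving out replicates 4 and 5 gave 3 higher and 5 lower, 57.1% against 54.6% of all genes.

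Of 19 genes for mitochondrial iron and iron-sulfur clusters, 2 rose and 6 fell, 42.1% against 47.4% of all genes. The chaperone HSPA9 fell from 672 ± 78.4 to 380 ± 23.7 CPM (-0.82 ± 0.08, adjusted p = 3.42e-06). The cysteine desulfurase NFS1 rose from 57.5 ± 12.5 to 80.4 ± 7.54 CPM (0.49 ± 0.13, adjusted p = 0.00617), and ferredoxin reductase (FDXR) rose from 27.9 ± 2.14 to 35.7 ± 3.15 CPM (0.36 ± 0.09, adjusted p = 0.00315). Without replicates 4 and 5, 3 rose and 7 fell, 52.6% against 54.6% of all genes.

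The response to LCL521 was small next to the difference between populations: over all genes, log2 fold changes had a median size of 0.0627 in parental cells and 0.0634 in PGCC, against 0.374 for PGCC versus UT. With all 6 pairs, edgeR called 0 of 13277 genes in UT_LCL versus UT (0% of genes) and 1 of 14151 in PGCC_LCL versus PGCC (0.00707%). Unadjusted p values under 0.05 were held by 71 and 218 genes. The replicate block raised the calls to 115 (0.866%) and 234 (1.65%). DESeq2 and limma-voom, both without the block, called 0 genes each in parental cells and 6 and 0 in PGCC. The members were chosen with these pair differences in view, so the following values carry no test.

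HMOX1 was higher with LCL521 in 12 of 12 pairs. In parental cells the levels without LCL521 were 91.8, 43.9, 67.3, 30.5, 35.0 and 112 CPM in replicates 1 to 6, and with LCL521 they were 110.1, 47.5, 83.4, 41.8, 44.6 and 118 CPM. In PGCC they were 46.8, 61.4, 62.8, 48.5, 42.8 and 67.8 CPM without and 64.6, 70.9, 92.4, 66.3, 69.5 and 95.3 CPM with LCL521. No member had LCL521-treated and untreated libraries that did not overlap, as 0.0301% of genes had in parental cells and 0.0848% in PGCC. For HMOX1 the SD between libraries was 33.1 CPM without and 34.4 CPM with LCL521 in parental cells, and 10.2 and 13.7 CPM in PGCC, where the mean was 55.0 CPM without and 76.5 CPM with LCL521. In PGCC only the untreated library of replicate 6 lay above any treated library.

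The mean log2 difference of the pairs for HMOX1 was 0.26 ± 0.15 (SD, n = 6) in parental cells, with folds of 1.05 to 1.37, and 0.48 ± 0.16 in PGCC, with folds of 1.15 to 1.62. The step was larger in PGCC in 5 of 6 replicates, by 0.22 ± 0.16 on the log2 scale, a difference that was not tested. Without replicates 4 and 5 the fitted log2 fold changes were 0.20 and 0.43. Over all genes, 3.25% were higher in 6 of 6 parental pairs, 3.75% in 6 of 6 PGCC pairs and 0.726% of 13091 genes in 12 of 12 pairs. Since HMOX1 was chosen with these pairs known, no more is read from these shares.

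**Figure D4:**
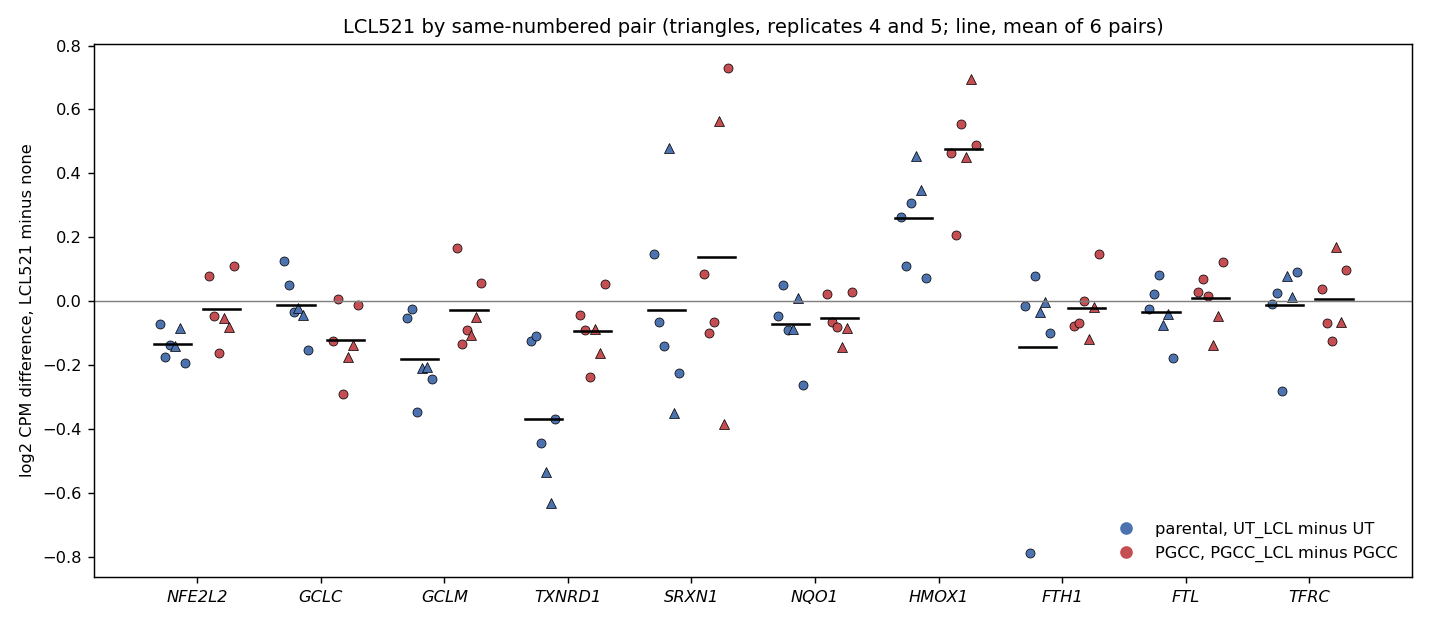
Difference in log2 CPM between the LCL521-treated and the untreated library of the same replicate number, for parental cells (blue) and PGCC (red), 6 pairs each, with the mean as a line and replicates 4 and 5 as triangles. HMOX1 lay above 0 in all 12 pairs, and TXNRD1, GCLM and NFE2L2 lay below 0 in all 6 parental pairs.

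In parental cells 3 members were lower with LCL521 in 6 of 6 pairs, a pattern met by 4.82% of all genes. TXNRD1 had pair differences of -0.12, -0.11, -0.44, -0.53, -0.63 and -0.37 in replicates 1 to 6, a mean of -0.37 ± 0.21. GCLM had a mean of -0.18 ± 0.12 and NFE2L2 a mean of -0.13 ± 0.05. The conditions overlapped for each of these 3 genes. Leaving out replicates 4 and 5, where the TXNRD1 step was deepest, its fitted log2 fold change was -0.25.

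In PGCC 0 members were lower in 6 of 6 pairs, where 4.24% of genes were. TXNRD1 was lower in 5 of 6 with a mean of -0.09 ± 0.10, and GCLM and NFE2L2 were each lower in 4 of 6 with means of -0.03 ± 0.12 and -0.03 ± 0.10. The TXNRD1 difference was less negative in PGCC than in parental cells in 6 of 6 replicates, by 0.27 ± 0.20 on the log2 scale, and this was not tested.

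The remaining members had no direction shared by all 6 pairs in either population. Their mean pair differences ran from -0.14 for FTH1 to -0.01 for GCLC and TFRC in parental cells, and from -0.12 for GCLC to 0.14 for SRXN1 in PGCC. The parental FTH1 value rested on replicate 2, with a pair difference of -0.79 against -0.10 to 0.08 in the other 5 pairs, since UT replicate 2 was the high FTH1 library noted above. NQO1, which differed most between populations, had mean pair differences of -0.07 ± 0.11 and -0.05 ± 0.07. FTL, SRXN1 and TFRC had SDs between pairs larger than their means in both populations.

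The related gene lists were tested in the same LCL521 contrasts. No list had a gene past the threshold without the block, where 0 and 1 genes passed in all. With the replicate block in PGCC, MAFG, a small MAF partner of NRF2, rose from 37.7 ± 4.98 to 45.5 ± 5.45 CPM (log2 fold change 0.27 ± 0.05, adjusted p = 0.0049), and SQSTM1 rose from 519 ± 162 to 576 ± 169 CPM (0.16 ± 0.04, adjusted p = 0.0218). TXNIP, the thioredoxin inhibitor, fell from 225 ± 62.6 to 188 ± 42.7 CPM (-0.25 ± 0.04, adjusted p = 0.00145), and MSRB2 fell from 7.29 ± 1.02 to 5.56 ± 0.737 CPM (-0.39 ± 0.10, adjusted p = 0.043). Without the block, MAFG, SQSTM1, TXNIP and MSRB2 changed by 0.22, 0.15, -0.31 and -0.13 in parental cells. In PGCC they changed by 0.27, 0.15, -0.26 and -0.39. With the block their edgeR adjusted p values in parental cells were 0.117, 0.179, 0.169 and 0.729. A difference between the populations was not tested.

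In parental cells the only listed gene past the threshold with the block was the heat shock gene HSPA1A, which fell from 196 ± 138 to 152 ± 102 CPM (-0.30 ± 0.05, adjusted p = 0.00713) and could share reads with its near copy HSPA1B. KEAP1 had adjusted p values of 0.334 and 0.905 with the block in parental cells and PGCC, BACH1 of 0.905 and 0.904, and HMOX2 of 0.566 in both. None of the heme or iron lists held a gene past the threshold in either LCL521 contrast, with or without the block.

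The genes whose log2 CPM over the 24 libraries was most like that of HMOX1, out of 10648 genes whose mean was 2 or more, were RP11-206L10.11 (Pearson r = 0.858), EN1 (0.835), MGRN1 (0.832), OGFR (0.812) and MLXIP (0.796). For the mean of GCLC, GCLM, TXNRD1, SRXN1 and NQO1 they included HEATR3 (0.970), MTA2 (0.964), SLC35E1 (0.962) and MPHOSPH10 (0.962). The 24 libraries fall into populations and into the 2 sets of replicates, which all of these genes share, so these values describe a common pattern over those sets and no relation between single genes.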

How the data were processed

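The authors deposited whole-number read counts per gene for all 24 libraries, not normalized, with gene lengths and hg19 coordinates. Per the labels' processing notes, CASAVA, STAR, HTSeq and DESeq2 were used. The study's methods give the versions of STAR, HTSeq and DESeq2, but the strand setting is not given in the sources used here, so counts of genes that overlap on either strand (SRXN1, and AGPS opposite NFE2L2) are uncertain. R 4.3.3 with edgeR 4.0.16 was used: filterByExpr (minimum count 10, minimum total 15), TMM scaling, and the quasi-likelihood test on the 12 libraries of each comparison with Benjamini-Hochberg adjustment over all genes tested (threshold 0.05). SEs are the log2 change divided by the square root of F. A prior count of 2 was added for log2 CPM. A level of 3 counts corresponds to 0.15 to 0.208 CPM, and total counts per library were 14835246 to 19906601.

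Libraries of a condition differed by more than sampling noise (chi-square per degree of freedom 4.98 to 111 over 60 pairs, where noise gives 1). The replicate numbers in the labels were taken to mark 6 parallel runs. Same-numbered libraries deviated together in every pair (lowest correlation 0.171). Replicates that stood apart in every condition can alone make such correlations positive, so their sign does not establish the pairing. In both LCL521 contrasts, 6 of 6 libraries correlated best with their own number. This held for 5 of 6 in PGCC versus UT and 3 of 6 in PGCC_LCL versus UT_LCL. Pairing between the populations therefore rests on the numbers alone. The study's methods name no block, so it is an alternative. P-values measure the spread between runs of 1 cell line.

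The members and gene lists were chosen with earlier results of these data known. Named genes were all members, KEAP1, BACH1, SQSTM1, SLC7A11, HMOX2, IREB2, ACO1 and SLC40A1 whatever their values, for each list the 2 largest rises and falls among called genes, those past the threshold with the block in an LCL521 contrast (at most 2 a direction), and the 5 genes most like HMOX1 and the NRF2 targets. Alternatives were DESeq2 1.42.0, limma-voom (limma 3.58.1), other scalings, filters, a gene length correction, the block and omitted replicates. The code was tested on simulated data. A few genes that these rules name are not reported here. List members absent from the table were HJV and PECAM1. The promoter and transcript sequences are in GRCh38 and were not joined to hg19 coordinates.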

Additional observations from a re-analysis of the deposited data

How the results depend on the processing

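In PGCC versus UT 4 members were called, all lower (NQO1, FTH1, TFRC and GCLC). The number was 2 with library totals as the only scaling, 3 with at least 10 counts in every library (TFRC lost), 3 when any 1 replicate was left out, 6 without replicates 4 and 5 (5 lower, 1 higher, GCLC lost) and 7 without them and with the replicate block (6 lower, 1 higher, GCLC lost). With library totals the split of all genes called also moved, from 3186 higher and 3355 lower to 3820 and 2521, and under LCL521 from 3454 and 3304 to 3819 and 2825. With the block 7765 and 7780 genes were called, and BACH1, HEBP2 and SLC7A11 were the named genes whose call in a population contrast it removed. LCL521 calls depended on the block: in parental cells 0 without it, 115 with it, 234 with it and a gene length correction and 3 with it but without replicates 4 and 5. In PGCC the count of 1 was 6 with DESeq2, 0 with limma-voom, with all 24 libraries in 1 fit or without replicates 4 and 5, 234 with the block, 260 with block and length correction, 129 with the block without replicates 4 and 5, and 0 to 1 when any replicate was left out. The cause was not tested.

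Changes of sign concerned small values, apart from NFE2L2. In PGCC versus UT, NFE2L2 was at 0.199 without replicates 4 and 5, with and without the block. FTL was at 0.008 with DESeq2 and with RLE factors, 0.092 with library totals, 0.034 with at least 10 counts in every library, and -0.04 to 0.028 with 1 replicate left out (above 0 without replicate 1 or 6). Under LCL521, NFE2L2 was at 0.356 without replicates 4 and 5 (0.352 with the block) and -0.241 to 0.081 with 1 replicate left out (above 0 without replicate 4 or 5). HMOX1 was at -0.119 and -0.062 in those fits and -0.011 to 0.248 with 1 left out (below 0 without replicate 2, 4 or 5). TXNRD1 was at 0.073 with limma-voom, 0.069 with the block, 0.038 with block and length correction, and -0.131 to 0.038 with 1 left out (above 0 without replicate 1 or 3). GCLM was at 0.004 with library totals and -0.1 to 0.049 with 1 left out (above 0 without replicate 1), and FTL at -0.034 and -0.029 with the length correction without and with the block. SRXN1, at 16 to 51 counts, is the member that depth limits most.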

Other observations

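ATF4 targets, the genes of the amino acid stress response, gave different counts with and without replicates 4 and 5. With all replicates, 9 of 22 fell and 3 rose in PGCC versus UT, 54.5% against 47.4% of all genes, and without replicates 4 and 5, 9 fell and 11 rose, 90.9% against 54.6%. ASNS, asparagine synthetase, fell from 575 ± 201 to 123 ± 49.5 CPM (log2 fold change -2.23 ± 0.28, edgeR adjusted p = 2.02e-05) and PCK2, the mitochondrial phosphoenolpyruvate carboxykinase, from 189 ± 78.6 to 38.8 ± 19.7 CPM (-2.28 ± 0.33, adjusted p = 7.33e-05). The transcription factor ATF3 rose from 8.89 ± 9.61 to 36.1 ± 20.3 CPM (2.03 ± 0.63, adjusted p = 0.0159), and CTH, which makes cysteine from cystathionine, rose from 9.67 ± 9.63 to 24.9 ± 4.39 CPM (1.37 ± 0.50, adjusted p = 0.0374). ATF3 and CTH were at 4.12 and 2.91 without replicates 4 and 5. SLC7A11, whose change was near 0 without replicates 4 and 5, is on this list too.

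Of 13 heat shock genes, 4 fell and 1 rose in PGCC versus UT, 38.5% against 47.4% of all genes. The co-chaperone DNAJB4 rose from 12.95 ± 4.04 to 29.8 ± 6.52 CPM (log2 fold change 1.22 ± 0.21, edgeR adjusted p = 0.000294). HSPA1A and HSPA1B, near copies that could share reads, were at 196 ± 138 and 229 ± 142 CPM in UT and at 75.9 ± 31.5 and 91.4 ± 35.6 CPM in PGCC (adjusted p = 0.038 and 0.0224).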
